A study of Mus musculus with 10 samples.

Results

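The genes described here are the 10 typical MAP kinase phosphatases, namely Dusp6, Dusp1, Dusp2, Dusp4, Dusp5, Dusp7, Dusp8, Dusp9, Dusp10 and Dusp16, chosen by gene name from the 54532 genes measured by RNA sequencing in mouse spleen. Dusp6 was the deleted gene, and the other 9 were examined for their levels in spleen and for any difference between DUSP6 KO and WT mice. Spleens came from 5 DUSP6 KO mice (the Dusp6tm1Jmol allele; called a knockdown in one label field, but HOM in the sample titles) and 5 C57BL/6J WT mice, purchased as separate stocks, all with KRN serum-induced arthritis (KSIA), a model in which serum of arthritic mice is transferred to healthy recipients. Both genotypes received 100 µL of pooled serum from 60-day-old arthritic KRN x NOD F1 donors on days 0 and 2, spleens were taken on day 9, and the mice of the study were 8 to 12 weeks old. The deletion is in the germline and so in every cell, and mice without serum were not analysed here. Replicates are separate mice, named by the numbers in the labels.

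Typical MAP kinase phosphatases (MKPs) switch off MAP kinases by removing the phosphates from the threonine and the tyrosine of the activation loop, and an amino-terminal domain that binds the kinase sets which kinase each enzyme prefers. They are conventionally grouped into cytoplasmic enzymes that prefer ERK (Dusp6, Dusp7 and Dusp9), nuclear enzymes whose genes are induced by growth factors, antigen receptors or stress (Dusp1, Dusp2, Dusp4 and Dusp5), and enzymes that prefer p38 and JNK (Dusp8, Dusp10 and Dusp16). Many MKP genes are themselves induced by the kinases that their products switch off, so they work as feedback brakes in lymphocytes and myeloid cells.

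Each library held between 14990474 and 19822673 reads assigned to genes. All libraries looked male, with Xist at 0.0206 FPKM or less and Ddx3y at 14.4 FPKM or more (FPKM is the number of fragments scaled by gene length and library size, so levels of different genes can be compared). Spleen markers were present in each library, with the red pulp macrophage gene Spic at 21.1 to 35.1 FPKM and the spleen patterning gene Tlx1 at 9.84 to 25.01 FPKM. The library of WT mouse 67 stood apart by its exocrine pancreas markers, which summed to 11926 FPKM, against 151 in WT mouse 65 and 9.49 to 26.2 in the other 8 libraries (Prss1 was listed at 0 in all 10). Neutrophil markers had lower fitted means in DUSP6 KO for 7 of 7 genes (6 reached an unadjusted p under 0.05, and 0 passed adjustment), with sums of 545 to 1882 FPKM in DUSP6 KO and 1047 to 4910 FPKM in WT. Of all genes tested, 3.03% were lower in DUSP6 KO at that unadjusted p. In whole spleen, fewer cells of a type and less RNA per cell cannot be told apart.

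Of the 10 MKP genes, only Dusp6 differed between the genotypes past the adjusted threshold (limma on log2(FPKM + 0.1), Benjamini-Hochberg over 21296 genes, threshold 0.05), in a comparison where 15 genes or 0.0704% of all genes tested did so. Dusp1 was the only other member that passed an unadjusted p under 0.05, with higher values in DUSP6 KO, beside 2.62% of all genes tested, and no member other than Dusp6 was lower at that level, beside 3.03%. The values of Dusp1 were higher in all 5 DUSP6 KO mice than in any WT mouse, a separation that 0.549% of all genes tested also showed, and those of Dusp6 were lower in all 5, as for 0.563% of genes. Among the 9 members other than Dusp6, 5 had a higher and 4 a lower fitted mean in DUSP6 KO, and their median log2 fold change was 0.0015, beside -0.0046 over all genes tested.

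**Figure D1:**
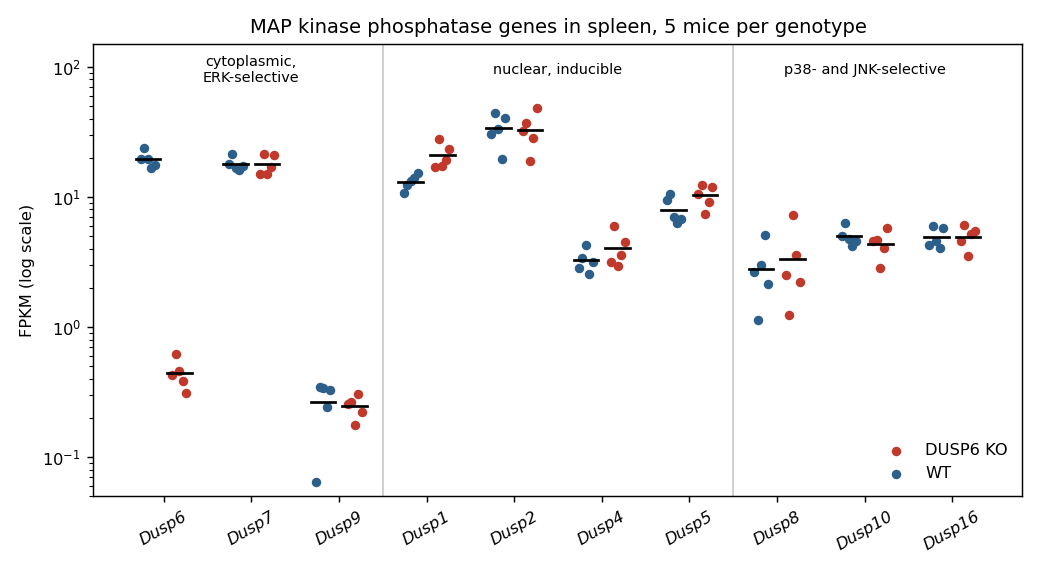
FPKM of each MKP gene (log axis) in 5 WT (blue) and 5 DUSP6 KO (red) spleens, 1 point per mouse, with the group mean as a line. Dusp6 sat near 19.4 FPKM in WT and near 0.440 FPKM in DUSP6 KO, Dusp1 was higher in every DUSP6 KO spleen, and the points of the other 8 genes overlapped.

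Dusp6 encodes the phosphatase MKP-3, which binds and inactivates ERK1 and ERK2 in the cytoplasm (chr10:99263231-99267489, plus strand; coordinates are those of the deposited table, and 98.3% of its genes have the same ones in GENCODE M21 on GRCm38). In WT spleens it was at 19.4, 24.0, 19.4, 16.6 and 17.7 FPKM (mice 65, 67, 73, 77 and 83), and in DUSP6 KO spleens at 0.428, 0.624, 0.458, 0.383 and 0.308 FPKM (mice 26, 21, 73, 01 and 03). The 2 groups lay far apart, and all libraries matched their labelled genotype. This gave a log2 fold change of -5.19 (SE 0.16; 95% confidence interval -5.55 to -4.84; adjusted p = 1.333e-07, limma), with the lowest p of all genes tested, and the mean in DUSP6 KO was 2.26% of the WT mean. The remaining signal in DUSP6 KO came from 16 to 38 reads per library, against 866 to 1434 in WT, and the table has 1 value per gene, so it does not show where in the gene these reads lie.

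Dusp7 (MKP-X), the cytoplasmic ERK phosphatase most like Dusp6 in level, had a mean of 17.9 FPKM in both genotypes. It was at 18.1, 21.2, 16.6, 16.2 and 17.3 FPKM in WT and at 15.1, 21.2, 15.1, 17.1 and 21.02 FPKM in DUSP6 KO, in the mouse order given above, which is kept below. The ranges overlapped almost fully. Dusp7 had a log2 fold change of -0.01 (SE 0.12; 95% interval -0.28 to 0.26; exact permutation p = 0.9603, two-sided, n = 5 and 5), so the interval reaches at most 1.2-fold higher in DUSP6 KO. This was the narrowest interval among the 10 members.

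Dusp9 (MKP-4) is X-linked and best known from placenta, liver and kidney. It was near the limit of detection, with 0.0645, 0.346, 0.341, 0.243 and 0.328 FPKM in WT and 0.256, 0.265, 0.176, 0.305 and 0.221 FPKM in DUSP6 KO, which stand for 3 to 18 reads per library. WT mouse 65 was the lowest, and the other values overlapped. Its log2 fold change of -0.01 had an interval of -0.72 to 0.71, or 0.607 to 1.64 times the WT level, and without WT mouse 65 it was -0.27 (unadjusted p = 0.2963).

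Dusp1 (MKP-1) is a nuclear phosphatase of p38, JNK and ERK, an immediate early gene and a target of glucocorticoids (chr17:26505590-26508519, minus strand; these coordinates differ from those in GENCODE M21). In WT it was at 10.8, 12.4, 13.2, 13.96 and 15.3 FPKM, and in DUSP6 KO at 17.0, 28.1, 17.4, 19.2 and 23.5 FPKM. The highest WT mouse (83) lay below the lowest DUSP6 KO mouse (26), and the DUSP6 KO mice were also more spread out, with 21.01 ± 4.72 FPKM against 13.1 ± 1.69 in WT (mean ± SD, n = 5 each). Fitted by limma, Dusp1 had a log2 fold change of 0.66 (SE 0.15; 95% interval 0.33 to 0.99), or 1.58-fold (1.25 to 1.98). The exact permutation test gave p = 0.0079 (two-sided), the smallest value that 5 against 5 mice can give. In the limma fit the unadjusted p was 0.001176 and the adjusted p was 0.3435 (rank 72 by p). Dusp1 thus passed a test of this gene taken alone but not the correction over all genes.

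A ratio of 2 genes in the same library does not depend on how libraries were scaled, so Dusp1 was also set beside the other members, a comparison added after its values were seen. The ratio of Dusp1 to Dusp7 was 0.598, 0.585, 0.791, 0.864 and 0.885 in WT and 1.12, 1.32, 1.15, 1.12 and 1.12 in DUSP6 KO. Dusp7 was thus above Dusp1 in all 5 WT spleens and below it in all 5 DUSP6 KO spleens. The ratios of Dusp1 to Dusp10 and to Dusp16 also did not overlap between the genotypes, while those to Dusp2, Dusp4, Dusp5, Dusp8 and Dusp9 overlapped. Dusp1 already separated the groups by itself, so its ratio to a gene of similar level in both genotypes tends to separate too. The ratios are therefore a description and not separate support, and ratios of Dusp1 to genes outside the members were not examined.

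Because Dusp1 and Dusp5 had the largest differences after Dusp6, part of the promoter of each is printed beside that of Dusp6, from 250 to 51 bases before the RefSeq start of the gene (assembly GRCm38.p6, each on the strand of its gene), and capitals mark cAMP response elements (TGACGTCA, or its core TGACG on either strand) and CArG boxes, the binding motif of serum response factor. Dusp6 and Dusp5 were added after the values were seen.
Dusp1 (chr17:26508523-26508722, minus strand): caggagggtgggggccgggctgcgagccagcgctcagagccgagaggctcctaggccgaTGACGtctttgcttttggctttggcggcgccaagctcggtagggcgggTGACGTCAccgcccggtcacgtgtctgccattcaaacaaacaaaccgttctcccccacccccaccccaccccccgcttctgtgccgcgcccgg
Dusp5 (chr19:53528895-53529094, plus strand): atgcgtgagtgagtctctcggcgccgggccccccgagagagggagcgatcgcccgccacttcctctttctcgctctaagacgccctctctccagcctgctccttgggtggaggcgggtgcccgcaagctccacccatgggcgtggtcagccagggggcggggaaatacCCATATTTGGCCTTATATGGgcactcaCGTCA
Dusp6 (chr10:99262981-99263180, plus strand): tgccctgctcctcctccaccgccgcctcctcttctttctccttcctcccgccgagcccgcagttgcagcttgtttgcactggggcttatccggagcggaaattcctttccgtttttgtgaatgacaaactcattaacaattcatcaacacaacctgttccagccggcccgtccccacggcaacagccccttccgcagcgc
The window of Dusp1 held 1 full cAMP response element, beginning at base -143, and a further core at base -191. That of Dusp5 held 2 adjacent CArG boxes, beginning at bases -82 and -72, and a core at base -55 on the opposite strand, and that of Dusp6 held none of the motifs searched.

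RefSeq windows were matched for 8 of the 10 members (Dusp4 and Dusp9 were not matched). The windows of Dusp8 and Dusp10 lie inside these genes as deposited, downstream of the deposited start, so they precede a different start. The full element TGACGTCA stood in 2 of these 8 (Dusp1 and Dusp8) and in 0.828% of all 32851 promoter windows of the same length. Its core TGACG, which every full element also contains, stood in 4 of the 8 (Dusp1, Dusp5, Dusp8 and Dusp16) and in 12.7% of all windows. The CArG box stood in 1 of the 8 (Dusp5) and in 1.16% of all windows. The AP-1 site TGANTCA and the ETS core CCGGAA, searched on both strands like the others, stood in none of the 8 and in 5.57% and 8.03% of all windows. A match describes letters in this window and is not a binding site, and no match says only that these letters are not in it.

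Dusp2 (PAC-1), a nuclear phosphatase induced in activated lymphocytes and myeloid cells, had the highest mean of the 10 members in both genotypes. Its values were 30.7, 44.3, 33.5, 19.5 and 40.6 FPKM in WT and 31.9, 36.8, 19.0, 28.4 and 48.3 FPKM in DUSP6 KO. The lowest mouse of each group (WT 77 and DUSP6 KO 73) was below the other 4 of its group, and the groups overlapped fully. Its log2 fold change was -0.05 (SE 0.27; 95% interval -0.64 to 0.54).

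Dusp5, a nuclear phosphatase that binds ERK and is induced by it, was at 9.41, 10.4, 7.03, 6.28 and 6.72 FPKM in WT and at 10.55, 12.3, 7.37, 9.13 and 12.02 FPKM in DUSP6 KO. The DUSP6 KO mean was higher (10.3 ± 2.07 against 7.98 ± 1.84 FPKM), but WT mice 65 and 67 lay within the DUSP6 KO range. The log2 fold change of 0.37 (SE 0.18; 95% interval -0.03 to 0.76) did not pass the test (unadjusted p = 0.06844, adjusted p = 0.9219, limma). Without WT mouse 67, the library with pancreas transcripts, Dusp5 passed an unadjusted p under 0.05, as it also did without WT mouse 65 or without DUSP6 KO mouse 73, and in none of these fits did it pass adjustment.

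Dusp4 (MKP-2), a nuclear phosphatase of ERK and JNK, was at 2.86, 3.40, 4.23, 2.57 and 3.18 FPKM in WT and at 3.13, 6.01, 2.96, 3.59 and 4.51 FPKM in DUSP6 KO. Only DUSP6 KO mice 21 and 03 were above the highest WT mouse. The log2 fold change of Dusp4 was 0.28 (SE 0.20; 95% interval -0.17 to 0.73; unadjusted p = 0.2008), and it was 0.13 without DUSP6 KO mouse 21. DUSP6 KO mouse 21 had the highest values of its group for Dusp1, Dusp4, Dusp5, Dusp7 and Dusp16, and for the residual Dusp6 reads.

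**Figure D2:**
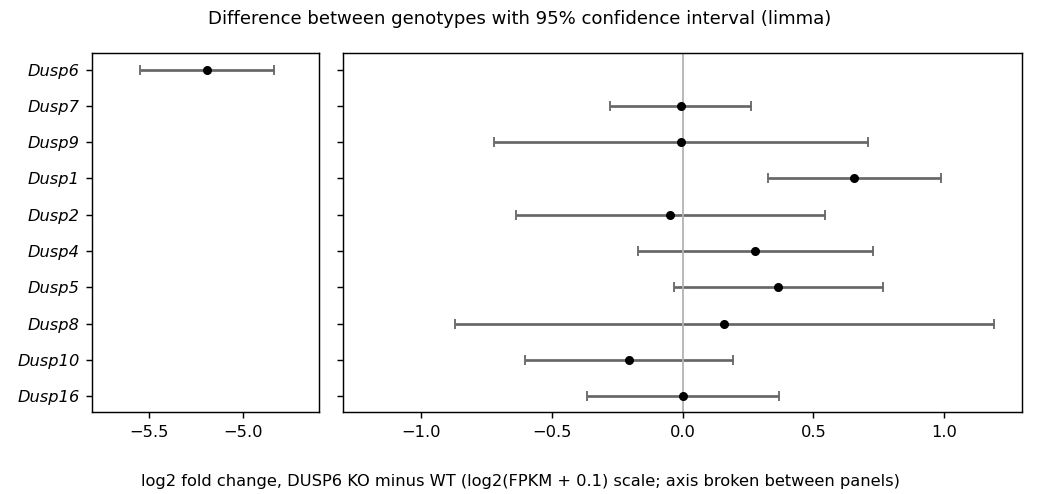
Log2 fold change of each MKP gene, DUSP6 KO minus WT, with its 95% confidence interval from limma (n = 5 and 5, axis broken between the panels). The interval of Dusp6 lay between -5.55 and -4.84, that of Dusp1 between 0.33 and 0.99, and those of the other 8 genes included 0.

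The phosphatases that prefer p38 and JNK showed no difference that passed the test. Dusp10 (MKP-5), which restrains JNK and p38 in T cells and macrophages, was at 4.999, 6.35, 4.76, 4.17 and 4.60 FPKM in WT and at 4.62, 4.65, 2.83, 4.04 and 5.75 FPKM in DUSP6 KO, with a log2 fold change of -0.20 (SE 0.18; 95% interval -0.60 to 0.19; -0.06 without DUSP6 KO mouse 73 and -0.11 without WT mouse 67). Dusp16 (MKP-7), a JNK phosphatase, was at 4.24, 5.92, 4.57, 4.02 and 5.80 FPKM in WT and at 4.57, 6.04, 3.48, 5.14 and 5.45 FPKM in DUSP6 KO, with a log2 fold change of 0.00 (SE 0.17; 95% interval -0.37 to 0.37). Both genes had overlapping groups, and for both the lowest DUSP6 KO mouse was number 73.

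Dusp8, a JNK and p38 phosphatase best known from brain and heart, varied most between mice of the same genotype. It was at 2.67, 1.13, 2.99, 5.05 and 2.15 FPKM in WT and at 2.49, 1.23, 7.25, 3.55 and 2.20 FPKM in DUSP6 KO. The coefficient of variation was 51.6% in WT and 69.8% in DUSP6 KO, against 11.2% and 17.0% for Dusp7. The log2 fold change of Dusp8 was 0.16 (SE 0.47; 95% interval -0.87 to 1.19), which reaches 2.28-fold higher and 0.547 of the WT level. For the other 8 members apart from Dusp6, the upper bound was under 2-fold.

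Dusp8, Dusp10 and Dusp16 each overlap a gene on the other strand (Gm32786 over 86 bases with 0 to 3 reads per library, 1700056E22Rik over 1272 bases with 8 to 51 reads, and Gm36328 over 947 bases with 0 to 8 reads). The sources used here do not give a strand setting for the counting, so reads in these stretches are uncertain. Dusp10 itself had 126 to 369 reads per library.

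In WT spleens the order of mean levels, from the highest, was Dusp2 (33.7 FPKM), Dusp6 (19.4), Dusp7 (17.9), Dusp1 (13.1), Dusp5 (7.98), Dusp10 (4.98), Dusp16 (4.91), Dusp4 (3.25), Dusp8 (2.80) and Dusp9 (0.265). Neighbours whose ranges over mice overlapped were Dusp2 and Dusp6, Dusp6 and Dusp7, and each pair from Dusp5 down to Dusp8, while Dusp7 was above Dusp1, Dusp1 above Dusp5 and Dusp8 above Dusp9 without overlap. Dusp6 was nevertheless above Dusp7 in each of the 5 WT mice. Dusp2 stood at the 92.9th percentile of the genes tested in WT, Dusp6 at the 86.7th and Dusp9 at the 16.5th.

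In DUSP6 KO spleens the order was Dusp2 (32.9 FPKM), Dusp1 (21.01), Dusp7 (17.9), Dusp5 (10.3), Dusp16 (4.94), Dusp10 (4.37), Dusp4 (4.04), Dusp8 (3.34), Dusp6 (0.440) and Dusp9 (0.245). Dusp6 therefore stood at rank 9 instead of 2, and Dusp1 at rank 2 instead of 4. The ranges of Dusp16, Dusp10, Dusp4 and Dusp8 overlapped from each gene to the next in both genotypes.

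The summed level of the members gives the size of these differences beside the loss of Dusp6, as a description with no test. Dusp6 made up 17.98% ± 1.36 of the summed MKP FPKM in WT and 0.456% ± 0.134 in DUSP6 KO (SD, n = 5 each), while the share of Dusp1 was 12.3% ± 2.45 and 21.2% ± 2.25. The mean level of Dusp6 was 19.0 FPKM lower in DUSP6 KO, and that of Dusp1 was 7.88 FPKM higher. The sum of the 9 other members was 88.9 ± 12.7 FPKM in WT and 99.0 ± 20.002 FPKM in DUSP6 KO, with overlapping ranges (71.9 to 106 and 75.5 to 123), and without Dusp1 it was 75.8 ± 12.8 and 78.0 ± 16.1 FPKM.

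By class, the sum of the cytoplasmic ERK phosphatases was 37.6 ± 4.76 FPKM in WT and 18.6 ± 3.08 FPKM in DUSP6 KO, with no overlap. Without Dusp6 that class was at 18.1 FPKM in both genotypes (SD 2.03 in WT and 3.06 in DUSP6 KO). The nuclear class was at 58.1 ± 10.99 FPKM in WT and 68.2 ± 17.2 FPKM in DUSP6 KO, with overlapping ranges, and the p38 and JNK class at 12.7 FPKM in both (SD 0.630 and 0.850).

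**Figure D3:**
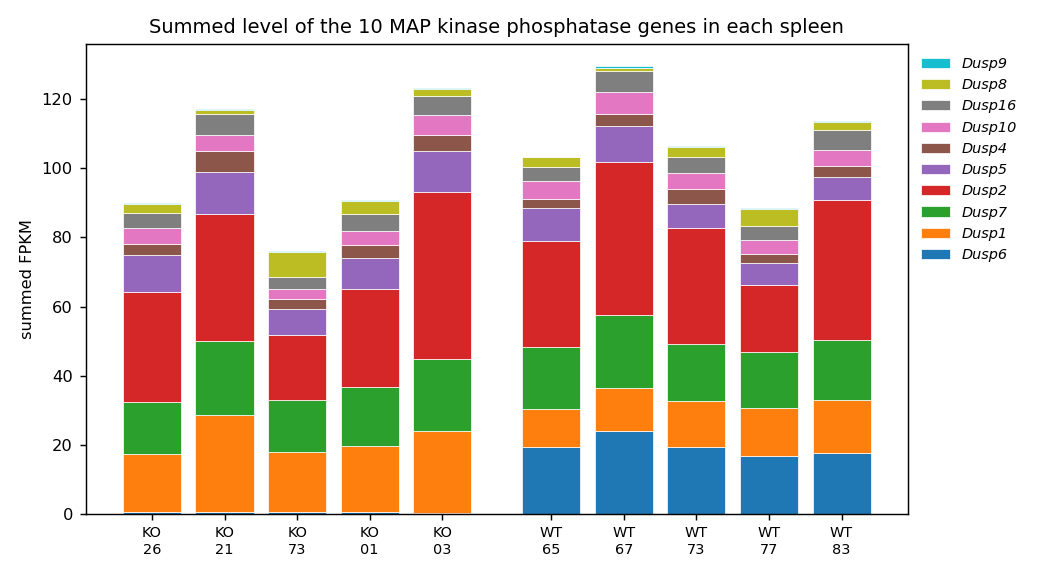
FPKM of the 10 MKP genes stacked for each spleen (KO, DUSP6 KO; mouse numbers below the bars). The blue Dusp6 segment is absent to the eye in DUSP6 KO, the orange Dusp1 segment is taller there, and the total ranged from 75.9 to 123 FPKM in DUSP6 KO and from 88.6 to 130 FPKM in WT.

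Within genotypes, several members varied together from mouse to mouse. Deviations from the genotype mean of log2(FPKM + 0.1) were correlated over the 10 mice for the 36 pairs of members other than Dusp6, with exact permutation within genotypes and Benjamini-Hochberg adjustment over the pairs, and 10 pairs passed (adjusted p of 0.0125 to 0.04374). The pair with the lowest p was Dusp5 and Dusp10 (Pearson r = 0.886, exact permutation p = 0.0003472, adjusted p = 0.0125; Spearman rho = 0.95, exact permutation p = 0.00125; r = 0.793 without the 2 mice whose Dusp5 was farthest from its genotype mean). Dusp2 was positively related to Dusp10 (r = 0.875) and Dusp16 (r = 0.860), and Dusp7 to Dusp5 (r = 0.805) and Dusp16 (r = 0.768). Dusp8 was related to Dusp2 (r = -0.863), Dusp5 (r = -0.860), Dusp7 (r = -0.800), Dusp10 (r = -0.840) and Dusp16 (r = -0.891) in the opposite direction. The same was done for each pair, with the 2 mice chosen by only 1 of its genes. These 10 pairs then kept their sign, and the weakest was Dusp7 with Dusp8 (r = -0.579). No pair with Dusp1 passed, and the closest was Dusp1 with Dusp4 (r = 0.726, exact permutation p = 0.04153, adjusted p = 0.09967).

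These members also varied with markers of spleen cell types. For each list of markers, r was taken with the mean of the log values of its genes and not with their summed FPKM. The sums are given only to show the levels. Dusp8 followed the erythroid markers, such as Klf1, Hba-a1, Hbb-bs and Epor, whose summed level was 29577, 21684, 42466, 42195 and 22347 FPKM in WT and 61791, 17379, 88993, 41531 and 26837 FPKM in DUSP6 KO. Within genotypes r was 0.955 (exact permutation p = 0.000625, adjusted p = 0.015 over 144 relations of members with lists; Spearman rho = 0.95, exact permutation p = 0.00125; r = 0.917 without the 2 farthest mice), with 0.947 over the 5 DUSP6 KO mice and 0.991 over the 5 WT mice. Dusp8 was inversely related to the B cell markers (r = -0.962, exact permutation p = 6.944e-05, the smallest these permutations can give, adjusted p = 0.009999; Spearman rho = -1, exact permutation p = 0.0001389; r = -0.939 without the 2 farthest mice).

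In all, 14 of the 144 relations passed adjustment by Pearson's r and 5 by rank. Dusp2 (r = 0.943), Dusp5 (r = 0.879), Dusp10 (r = 0.899) and Dusp16 (r = 0.876) followed the B cell markers, Dusp2 (r = 0.886) and Dusp10 (r = 0.912) the T cell markers, and Dusp7 (r = -0.899) and Dusp16 (r = -0.908) were inversely related to the erythroid markers. The immediate early genes described below were followed by Dusp2 (r = 0.880), Dusp7 (r = 0.908) and Dusp16 (r = 0.861), and Dusp8 went the other way (r = -0.914). The 5 that also passed by rank were the relations of Dusp8 with the B cell, erythroid and immediate early genes and those of Dusp7 and Dusp16 with the erythroid markers. All values of a mouse share a library and its scaling. The erythroid markers were higher in DUSP6 KO for 5 of 5 genes and the B cell markers lower for 6 of 6, none at an unadjusted p under 0.05 and with overlapping sums, and their part in the genotype comparison of Dusp2, Dusp5, Dusp7, Dusp8, Dusp10 and Dusp16 was not tested.

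**Figure D4:**
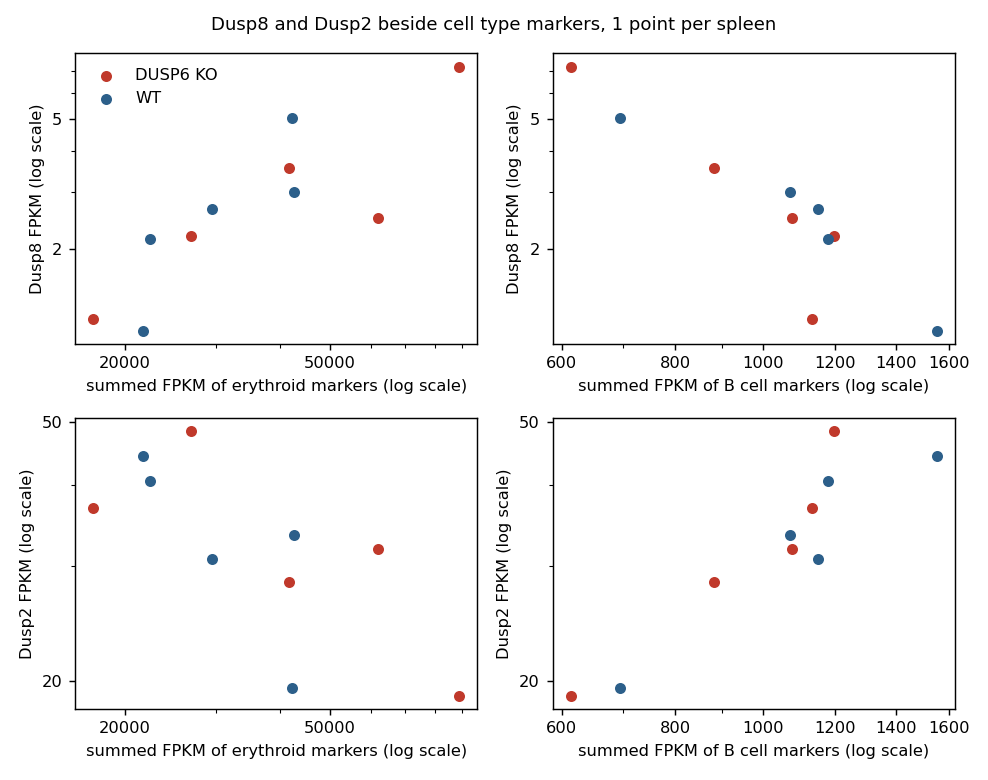
FPKM of Dusp8 (top) and Dusp2 (bottom) against the summed FPKM of erythroid (left) and B cell markers (right), on log axes with 1 point per spleen. Within each genotype Dusp8 was higher where erythroid markers were higher (r = 0.955) and B cell markers lower (r = -0.962), and Dusp2 was higher where B cell markers were higher (r = 0.943). These r values were taken with the mean of the log values of the marker genes, not with the plotted sums.

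For Dusp1 no relation with a list passed adjustment, with r again taken with the mean log2(FPKM + 0.1) of the list and not with its sum. The lowest p was for the ERK feedback genes (r = 0.741, exact permutation p = 0.03097, adjusted p = 0.1291; Spearman rho = 0.65, exact permutation p = 0.07611), and r was 0.358 without the 2 farthest mice, so it rests on those mice. Stromal and endothelial markers, 5 of 7 of which had a higher fitted mean in DUSP6 KO (2 reached an unadjusted p under 0.05, and 0 passed adjustment), summed to 164 to 248 FPKM in DUSP6 KO and 143 to 166 FPKM in WT and had r = 0.627 with Dusp1 (exact permutation p = 0.1436), with 0.873 over the DUSP6 KO mice, -0.733 over the WT mice and 0.0627 without the 2 farthest mice, so the pooled value rests on those mice and joins opposite directions. Erythroid markers had r = -0.659 with Dusp1 (exact permutation p = 0.07882, adjusted p = 0.2389), with -0.942 over the DUSP6 KO mice, 0.0696 over the WT mice and -0.268 without the 2 farthest mice. Of the 6 splenic macrophage markers, 3 had a higher fitted mean in DUSP6 KO, each at an unadjusted p under 0.05 (limma), and 3 a lower one. They summed to 390 to 616 FPKM in DUSP6 KO and 391 to 452 FPKM in WT and had r = 0.1003 with Dusp1 (exact permutation p = 0.8463). Neutrophil markers had r = -0.0948 with Dusp1 (exact permutation p = 0.7777). The part of these cells in the Dusp1 difference was not tested. Without WT mouse 67 the log2 fold change of Dusp1 was 0.64 (unadjusted p = 0.003336, adjusted p = 0.5163, limma), and leaving out each mouse in turn gave 0.55 to 0.73.

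The 5 genes whose within-genotype deviations were most like those of Dusp1, among the 13421 genes averaging 1 FPKM or more and over 10 mice, were Mbnl2 (r = 0.979), Ttc7b (r = 0.971), Zfp651 (r = 0.966), Slc39a10 (r = 0.960) and Tnfsf11 (r = 0.958). They were picked as the highest of many and so have no test. None of these 5 differed between the genotypes at an unadjusted p under 0.05, and 3 of them had a lower mean in DUSP6 KO.

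The genes around the MKPs in the same pathways were described by lists that follow their roles, with the limma fit over all genes. For the kinases and activators that the MKPs oppose, no difference passed adjustment. Of the 9 MAP kinases tested, 4 had a higher and 5 a lower fitted mean in DUSP6 KO (median log2 fold change -0.01), and the ERK gene Mapk3 had a log2 fold change of 0.06. The p38 kinases Mapk13 (0.640 ± 0.103 against 1.19 ± 0.585 FPKM, log2 fold change -0.71, unadjusted p = 0.02733) and Mapk12 (1.62 ± 0.554 against 2.32 ± 0.512 FPKM, log2 fold change -0.52, unadjusted p = 0.04873) had the lowest p of this list, and neither passed adjustment. On leaving out each mouse in turn the unadjusted p was 0.01341 to 0.06393 for Mapk13 and 0.01114 to 0.1157 for Mapk12, so neither kept an unadjusted p under 0.05 throughout.

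None of the 7 MAP kinase kinases and none of the 6 RAF and RAS genes reached an unadjusted p under 0.05. The lowest p values there belonged to Map2k6, an activator of p38 (log2 fold change 0.19), and Map2k4, an activator of JNK (0.10), and to Araf (-0.15), which acts upstream of ERK. The medians of these lists were 0.03 and -0.01.

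Among the other phosphatases, the 16 atypical dual specificity phosphatases mostly lack the kinase-binding domain of the MKPs. Of these 16, 13 were tested, with 4 higher and 9 lower fitted means in DUSP6 KO (median log2 fold change -0.12). Dusp11, an RNA phosphatase, was at 17.5, 19.0, 17.3, 19.4 and 18.9 FPKM in WT and at 15.8, 16.4, 16.7, 16.3 and 14.9 FPKM in DUSP6 KO. The groups did not overlap, a separation in this direction that 0.563% of all genes tested showed. The log2 fold change of -0.20 (SE 0.06) had an unadjusted p of 0.01003 and an adjusted p of 0.6449 (limma). The paper, which tested counts, names Dusp11 among its most significantly decreased genes. Dusp28 followed with a log2 fold change of -0.21 (unadjusted p = 0.05844), and Dusp13 and Dusp21 were listed at 0 in all libraries. Of the MAP kinase tyrosine phosphatases, Ptpn7, the form found in blood cells, was at 13.7 ± 1.95 FPKM in WT and 13.4 ± 0.848 in DUSP6 KO, and Ptpn5 was at 0.124 and 0.0955 FPKM (log2 fold changes -0.03 and -0.19, n = 5 each).

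The other feedback genes of the ERK pathway (Sprouty, Spred and Etv genes) had higher fitted means in DUSP6 KO for all 8 that were tested of 10. Their median log2 fold change was 0.48, and 4 reached an unadjusted p under 0.05 and 0 passed adjustment. Of all genes tested, 2.62% were higher in DUSP6 KO at that unadjusted p. The sum of the ERK feedback genes was 23.6 to 28.7 FPKM in WT and 29.9 to 44.8 FPKM in DUSP6 KO, with no overlap. Spry1, an inhibitor of receptor tyrosine kinase signalling, was at 2.07, 2.72, 1.76, 1.82 and 3.11 FPKM in WT and at 3.39, 6.42, 4.81, 4.94 and 4.46 FPKM in DUSP6 KO (log2 fold change 1.04, SE 0.20, unadjusted p = 0.0003296, adjusted p = 0.2428). Spry4, of the same family, was at 1.26 ± 0.176 FPKM in WT and 2.20 ± 0.533 FPKM in DUSP6 KO (log2 fold change 0.74, SE 0.17, adjusted p = 0.368). The paper, which tested counts, lists Spry1 and Spry4 as significantly higher in DUSP6 KO after adjustment. Not passing is stated here only for the fit used here, and the reason for the difference from the paper's test was not tested.

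Dusp1 belongs to the immediate early genes and to the genes induced by glucocorticoids, so both lists were set beside it. Of 20 other immediate early genes, 11 had a higher and 9 a lower fitted mean in DUSP6 KO (median log2 fold change 0.02). At an unadjusted p under 0.05, 1 was higher, beside 2.62% of all genes tested. That gene was Fos, a subunit of AP-1, at 1.99, 2.25, 1.75, 2.20 and 2.21 FPKM in WT and 2.26, 7.57, 2.73, 5.77 and 4.02 FPKM in DUSP6 KO (log2 fold change 0.94, SE 0.29, adjusted p = 0.6214). All 5 DUSP6 KO mice were above the WT mice, DUSP6 KO mouse 26 only just, a separation that 0.549% of all genes tested also showed. Cyr61, which encodes a secreted matrix protein, had a log2 fold change of 0.94 with overlapping groups (unadjusted p = 0.07091).

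Of the 8 glucocorticoid-induced genes, 2 had a higher and 6 a lower fitted mean in DUSP6 KO (median log2 fold change -0.06), and none reached an unadjusted p under 0.05. Fkbp5, a chaperone of the glucocorticoid receptor, was at 9.18 ± 2.36 FPKM in WT and 6.93 ± 1.29 FPKM in DUSP6 KO, and Sgk1, a kinase, at 9.98 ± 2.01 and 12.2 ± 2.27 FPKM. Their log2 fold changes were -0.38 and 0.29.

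**Figure D5:**
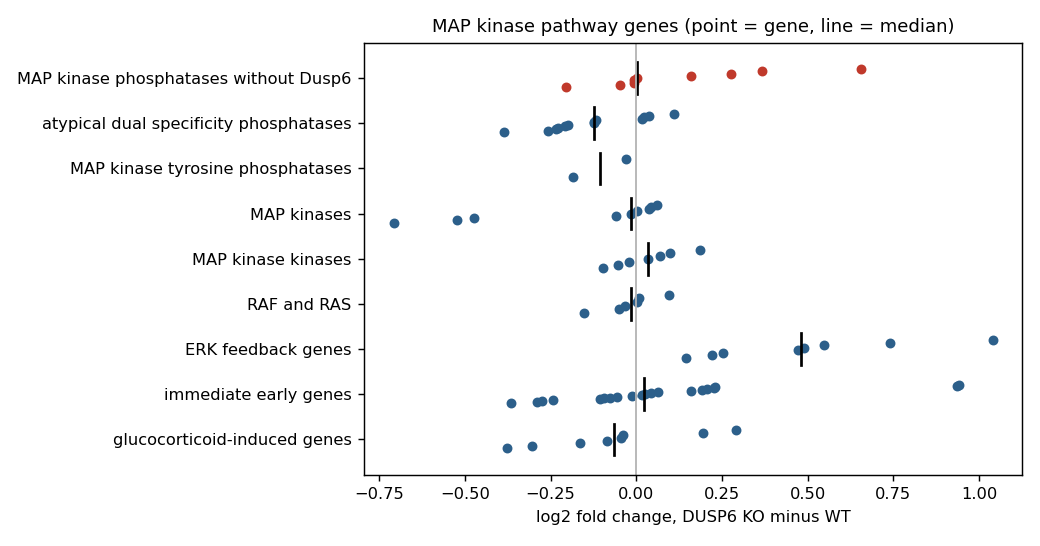
Log2 fold change, DUSP6 KO minus WT, of each gene tested in the MKP list without Dusp6 (red) and in 8 lists of related genes (blue), with the median of each list as a line. The ERK feedback genes all lay above 0 with a median of 0.48, while the medians of the other lists lay between -0.12 and 0.03.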

How the data were processed

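RNA of 10 spleens was sequenced with 1 library per mouse. Hisat2 alignment of the paired reads and featureCounts (1.5.0-p3 in the submitters' processing notes) gave gene counts, per the paper's supplement, and from these the authors computed FPKM, the only values deposited. Those notes name the human build hg38, but the gene identifiers are of mouse, and 54495 of 54532 are in GENCODE M21.

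FPKM times gene length gave whole reads for 100% of values (within 0.01 of a read), from which depth was taken. The fit was limma 3.58.1 in R 4.3.3 (eBayes with trend) on log2(FPKM + 0.1), over 21296 genes averaging 0.1 FPKM or more, adjusted by Benjamini-Hochberg. Each member was also compared by a two-sided exact permutation test. Count models were not used, and voom on recovered reads was an alternative. The paper's own test on counts (DESeq2, per its supplement) called many more genes than the fit used here. No other value columns were left out.

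Members and gene lists were chosen with earlier results of these data known. Outside the members, the text names in each list the genes past adjustment or else the 2 with the lowest p, and the 5 genes most like the member with the lowest p after Dusp6. Values of some genes of these lists are not reported here. Sequences are from RefSeq. Python 3.11.15, numpy 2.4.6, pandas 2.3.3, scipy 1.17.1, matplotlib 3.10.9 and the R package data.table (1.17.8) were used.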

Additional observations from a re-analysis of the deposited data

How the results depend on the processing

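Dusp6 stayed the only member past adjustment in all 21 alternatives (adjusted p at most 2.41e-06), and Dusp1 kept its direction in all 21 (log2 fold change 0.55 to 0.73, unadjusted p 0.000685 to 0.00381, adjusted p 0.211 to 0.617). The number of members higher at an unadjusted p under 0.05 was 1, and became 2 with array weights, and 1 to 2 on leaving out each mouse, where Dusp5 joined without DUSP6 KO 73, WT 65 or WT 67. Fold changes close to 0 changed sign. For Dusp7 the log2 fold change was 0.0026 when libraries were rescaled to leave out mitochondrial, haemoglobin, antibody and T cell receptor genes, 0.0162 with array weights and -0.0731 to 0.0554 on leaving out each mouse. For Dusp9 it was 0.0623 with a pseudocount of 0.01, 0.0135 with quantile normalization, 0.0566 with voom and -0.271 to 0.0892 on leaving out each mouse. For Dusp16 it was -0.0011 with voom and -0.0756 to 0.1184 on leaving out each mouse, for Dusp2 -0.2307 to 0.1334, and for Dusp8 -0.1733 (without DUSP6 KO 73) to 0.4443. Dusp4 ranged from 0.1251 to 0.3753 and Dusp10 from -0.3096 to -0.06 on leaving out each mouse. For Ptpn7 the range was -0.1092 to 0.0309 (positive without DUSP6 KO 21 or WT 77). The cause was not tested. With a minimum mean of 1 FPKM, Dusp9 had no value. The order of levels and the sums did not move beyond the spread between mice. No paired analysis was possible because the design has no pairs, and the number 73, found in both genotypes, names separate mice. Low counts limit Dusp9 and the residual Dusp6 values.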
